A study of Mus musculus with 12 samples.

Results

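Microglia are the resident macrophages of the brain, and 39 genes enriched in them or shared with other myeloid cells were followed in the striatum of mice labelled TAAR5-KO and WT. The members were picked by gene name as known microglial and myeloid genes, without a rule on their measured values. Earlier results of these data were known when they were picked, so counts over them carry no test. A row of the count table carried the name of 38 of the 39, out of 57132 features in all, and all 38 passed the filter on low counts among 13902 features tested. Fcrls has no row under its own name and is described apart. The 12 libraries came from the striatum of 10-month-old C57Bl/6 littermates, 6 labelled TAAR5-KO and 6 labelled WT, with no treatment in either group. TAAR5-KO mice carry a deletion of the gene for trace amine-associated receptor 5, a receptor for volatile amines, and the tissue was a coronal slice in front of Bregma, stripped of cortex. Both sexes were used, and the sex of a library was not used here.

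Total counts ran from 11269915 to 34824450 per library. Counts on ribosomal RNA features made up 82.1 ± 6.29% of a library under the TAAR5-KO label and 76.9 ± 9.96% under the WT label (SD, n = 6 each; exact permutation test, two-sided, p = 0.312), leaving 1819907 to 6399188 other counts per library. The targeted gene Taar5 went against the labels, with 16 counts in the 6 libraries labelled TAAR5-KO and 3 in the 6 labelled WT, 0.142 ± 0.0617 and 0.0223 ± 0.0381 CPM (two-sided exact permutation test, p = 0.00649). The extent of the deleted segment is not given in the sources used here, so directions below follow the labels. Libraries are named NK1 to NK6 for TAAR5-KO and NK7 to NK12 for WT, as in the count table. Medium spiny neuron genes of the striatum were present, Ppp1r1b at 34.9 ± 4.85 and 32.9 ± 6.55 CPM (SD, n = 6 each).

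Microglia survive on signals through the colony stimulating factor 1 receptor and keep their resting identity under transforming growth factor beta and the transcription factors PU.1, IRF8 and SALL1. Their processes survey the tissue through purinergic and chemokine receptors. They supply most of the C1q of the brain, tag synapses with it, and break down what they engulf with lysosomal proteases. Several of the members (Spi1, Ptprc, Itgam, Fcgr3, Csf3r, Dock2, Vav1) are expressed in other leukocytes as well.

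Of the 38 members tested, 6 were lower in the libraries labelled TAAR5-KO and 0 were higher by the likelihood ratio test of edgeR at a Benjamini-Hochberg adjusted p under 0.1. Among all features tested, 0.691% were called lower and 0.957% higher, against 15.8% and 0 of the members. The 6 were Dock2, a guanine nucleotide exchange factor for Rac, Lgmn, a lysosomal protease, Laptm5, a lysosomal membrane protein, C1qc, a chain of C1q, P2ry12, the ADP receptor of resting microglia, and Csf1r, the colony stimulating factor 1 receptor. Their log2 fold changes ran from -0.94 for Dock2 to -0.35 for Lgmn. Over all 38 members the median log2 fold change was -0.27, beside -0.01 over all features tested. A log2 fold change below 0 was seen in 32 of 38 members and in 51.1% of all features. At an unadjusted p under 0.05 in the same test, 14 members were lower and 0 higher, beside 5.51% and 6.39% of all features. The edgeR quasi-likelihood test at the same threshold called 2 of them lower, Dock2 and Lgmn, beside 0.144% of all features, and DESeq2 called 4, Csf1r, Laptm5, Lgmn and P2ry12, beside 1.09% of the features it adjusted. DESeq2 gave no adjusted p to 27 of the 38 members, Dock2 and C1qc among them. In bulk tissue, fewer microglia, less RNA of these genes per microglial cell and less RNA of them from other cells cannot be told apart.

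**Figure D1:**
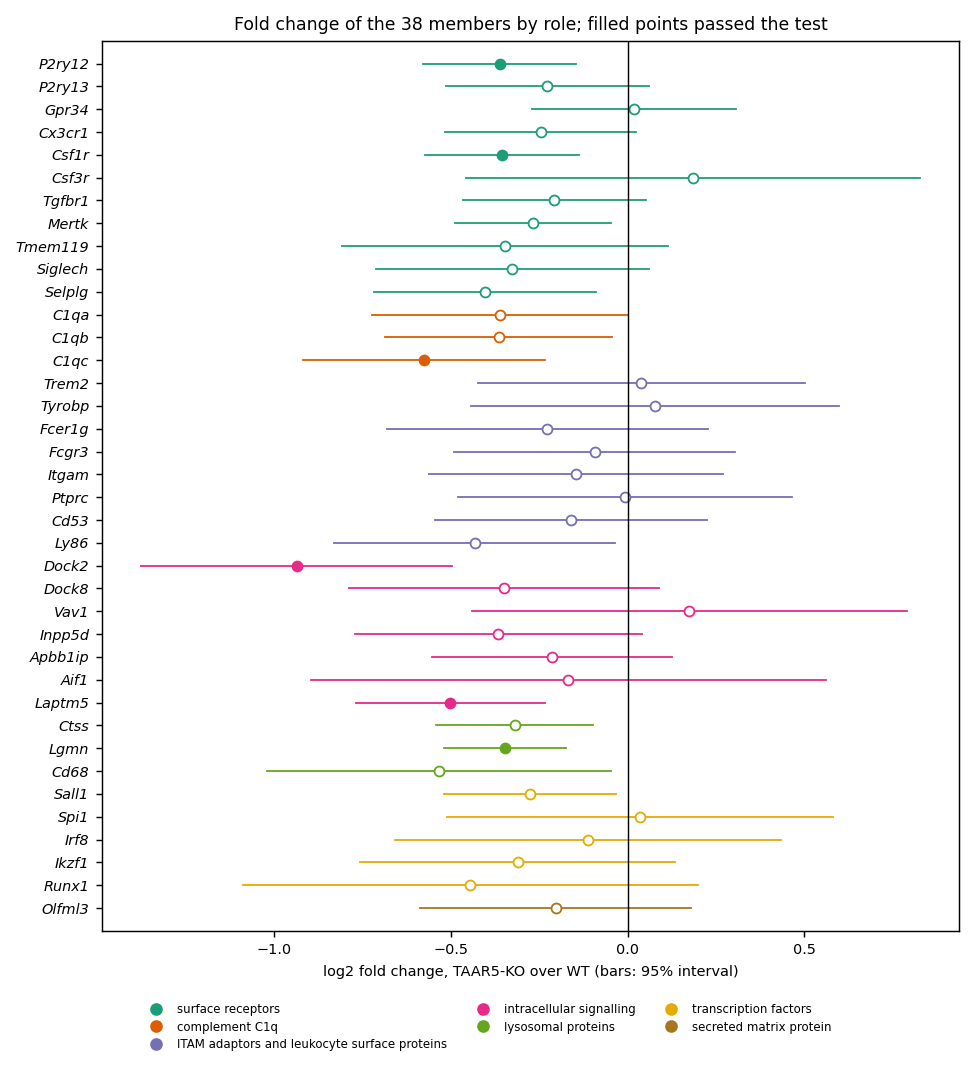
Log2 fold change, TAAR5-KO over WT by the labels, of the 38 members tested, grouped and coloured by role; bars are 95% intervals and filled points passed the likelihood ratio test at an adjusted p under 0.1. The 6 filled points all lie below 0, and 32 of 38 points lie below 0.

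The promoters of the called members are shown, apart from Csf1r, which had no entry among the promoters used. They are shown because PU.1, encoded by Spi1, binds a purine-rich GGAA core in many microglial enhancers and promoters. The sequences are RefSeq's, 300 bases each around the start of the RefSeq gene, taken from a table built on GRCm38.p6 and placed in GRCm39 by exact match. Each is printed 5′ to 3′ along the gene, in lower case with AGGAAGT or its reverse complement ACTTCCT in capitals. They lie at chr11:34674683-34674982 (- strand) for Dock2, chr4:136620176-136620475 (- strand) for C1qc, chr3:59170357-59170656 (- strand) for P2ry12, chr4:130640377-130640676 (+ strand) for Laptm5 and chr12:102405938-102406237 (- strand) for Lgmn, the first of 2 entries for that gene.
Dock2: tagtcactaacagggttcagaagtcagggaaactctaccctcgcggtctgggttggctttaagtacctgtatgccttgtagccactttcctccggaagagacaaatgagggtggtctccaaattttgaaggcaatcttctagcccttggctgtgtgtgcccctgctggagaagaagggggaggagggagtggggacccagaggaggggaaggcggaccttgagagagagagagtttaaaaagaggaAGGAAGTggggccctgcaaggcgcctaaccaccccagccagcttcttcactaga
C1qc: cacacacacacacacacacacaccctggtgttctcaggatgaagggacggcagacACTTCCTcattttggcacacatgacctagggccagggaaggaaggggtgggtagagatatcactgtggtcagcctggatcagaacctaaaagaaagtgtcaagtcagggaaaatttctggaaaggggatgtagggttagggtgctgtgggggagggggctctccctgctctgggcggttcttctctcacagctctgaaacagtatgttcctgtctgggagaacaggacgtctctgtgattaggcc
P2ry12: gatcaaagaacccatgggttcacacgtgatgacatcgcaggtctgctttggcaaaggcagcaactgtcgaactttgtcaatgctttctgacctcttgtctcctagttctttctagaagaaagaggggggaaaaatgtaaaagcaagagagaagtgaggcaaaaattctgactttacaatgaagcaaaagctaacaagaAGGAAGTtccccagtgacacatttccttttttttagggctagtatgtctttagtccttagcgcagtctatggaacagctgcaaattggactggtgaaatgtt
Laptm5: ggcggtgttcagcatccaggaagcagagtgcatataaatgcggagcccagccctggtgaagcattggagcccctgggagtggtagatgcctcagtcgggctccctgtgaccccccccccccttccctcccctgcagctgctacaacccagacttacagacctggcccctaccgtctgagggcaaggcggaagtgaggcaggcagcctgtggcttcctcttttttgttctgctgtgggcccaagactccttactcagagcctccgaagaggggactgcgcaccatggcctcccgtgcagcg
Lgmn: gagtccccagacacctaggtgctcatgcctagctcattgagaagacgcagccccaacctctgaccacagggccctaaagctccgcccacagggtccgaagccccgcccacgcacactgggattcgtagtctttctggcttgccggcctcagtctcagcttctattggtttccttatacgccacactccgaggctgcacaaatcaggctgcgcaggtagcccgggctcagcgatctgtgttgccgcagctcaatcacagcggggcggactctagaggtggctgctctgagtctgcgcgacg

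The RefSeq starts differ from the gene starts of GENCODE given below, lying 13 bases before them for Dock2 and 114 before for P2ry12, and 151, 191 and 85 after for C1qc, Laptm5 and Lgmn. Counted from the RefSeq start, the match begins 4 bases before in the Dock2 window, 52 before in P2ry12 and 195 before, on the reverse strand, in C1qc. No match to AGGAAGT stands in the Laptm5 and Lgmn windows. Both hold the shorter GGAA, in Laptm5 as printed and in Lgmn as its reverse complement TTCC. The table held a promoter for 32 of the 39 members, and 12 of the 32 (37.5%) contained AGGAAGT on either strand, beside 10.7% of the 27025 genes with an entry. The longer GAGGAAGT, each match of which also counts as AGGAAGT, was in 6 of 32 (18.8%) and in 3.69% of all genes. Among the 5 called members with an entry, 3 held AGGAAGT. A match is a description of the letters, and binding was not measured.

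Among the surface receptors, which sense nucleotides, chemokines and growth factors, 2 of 11 tested were lower and 0 higher, with a median log2 fold change of -0.27. P2ry12 (ENSMUSG00000036353.14, chromosome 3, 59123693 to 59170292, - strand, GRCm39) had a lowest, median and highest level of 7.13, 9.08 and 10.3 CPM in the libraries labelled TAAR5-KO and 8.55, 11.5 and 13.3 CPM in those labelled WT. The groups overlapped, with 5 of 6 WT libraries above every TAAR5-KO library. The means were 8.95 ± 1.12 and 11.3 ± 1.66 CPM (SD, n = 6 each), which gave -0.36 on the log2 scale (SE 0.11, edgeR likelihood ratio test, adjusted p = 0.0773; quasi-likelihood test, adjusted p = 0.180). The call was lost without any 1 of NK1, NK2, NK3, NK5, NK6, NK7, NK8, NK11 or NK12, where the adjusted p rose to as much as 0.250 and the log2 fold change stayed between -0.41 and -0.30.

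Csf1r (ENSMUSG00000024621.17, chromosome 18, 61233670 to 61265221, + strand) was at 6.36, 7.22 and 9.42 CPM in TAAR5-KO (lowest, median, highest) and at 7.55, 9.51 and 10.9 CPM in WT. Here 3 TAAR5-KO libraries lay below every WT library and 3 WT libraries above every TAAR5-KO library. The means were 7.40 ± 1.14 and 9.42 ± 1.13 CPM (SD, n = 6 each), which gave -0.36 on the log2 scale (SE 0.11, edgeR likelihood ratio test, adjusted p = 0.0913; quasi-likelihood test, adjusted p = 0.188). Its call held without NK4 or NK9 and was lost without any of the other 10 libraries, with an adjusted p of up to 0.285. Of its exonic bases, 15.1% overlap Hmgxb3 on the opposite strand, and whether the counting used strand is not given in the sources used here.

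The other surface receptors did not pass the test. Cx3cr1, the receptor for the neuronal chemokine fractalkine, was at 5.75, 7.24 and 10.4 CPM in TAAR5-KO and 7.53, 8.61 and 10.4 CPM in WT, with a log2 fold change of -0.25 (SE 0.14, edgeR likelihood ratio test, adjusted p = 0.481). The highest TAAR5-KO library of Cx3cr1 was level with the highest WT library, while 4 TAAR5-KO libraries were below every WT library. Tmem119, a membrane protein used as a marker that separates microglia from blood macrophages, was at 0.810, 1.24 and 1.92 CPM in TAAR5-KO and 0.723, 1.65 and 2.16 CPM in WT, and the WT range enclosed the TAAR5-KO range (log2 fold change -0.35, 95% interval -0.81 to 0.11). The remaining log2 fold changes were -0.40 for Selplg, the P-selectin ligand, -0.33 for Siglech, a sialic acid lectin, -0.27 for Mertk, an engulfment receptor for apoptotic cells, -0.23 for P2ry13, an ADP receptor beside P2ry12 on chromosome 3, -0.21 for Tgfbr1, a subunit of the receptor for transforming growth factor beta, 0.02 for Gpr34, a lysophosphatidylserine receptor, and 0.19 for Csf3r, the receptor for granulocyte colony stimulating factor. Their mean levels ran from 0.431 CPM for Csf3r to 7.24 CPM for Tgfbr1.

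The promoter listed under Fcrls, an Fc receptor-like scavenger receptor of microglia, matched GRCm39 at chr3:87170782-87171081 (- strand), at the 5′ end of the row named Fcrl2 (ENSMUSG00000015852.14, chromosome 3, 87158065 to 87171045, - strand). That row held 1.12 ± 0.301 CPM in TAAR5-KO and 1.63 ± 0.451 CPM in WT (SD, n = 6 each), on the log2 scale a difference of -0.52 (SE 0.22, edgeR likelihood ratio test, adjusted p = 0.268). It is kept out of every count of members.

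**Figure D2:**
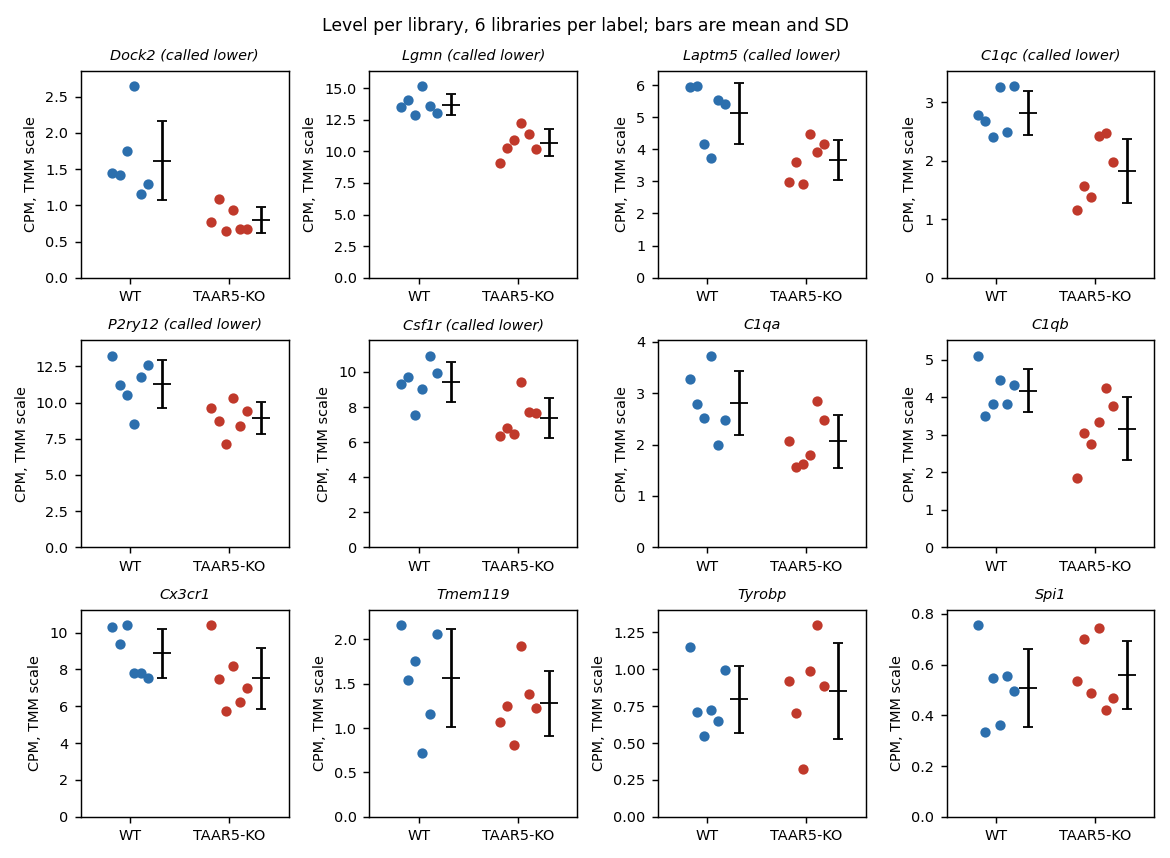
Level in CPM on the TMM scale of 12 members in each of the 6 libraries labelled WT (blue) and the 6 labelled TAAR5-KO (red), with the mean and SD to the right of the points. The groups do not overlap for Dock2 and Lgmn, overlap in part for the other called members and overlap widely for Tyrobp and Spi1.

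C1q, the recognition molecule of the classical complement pathway, is built from A, B and C chains that are encoded side by side by C1qa, C1qb and C1qc on chromosome 4. All 3 had log2 fold changes below 0, and 1 of 3 passed the test. C1qc (ENSMUSG00000036896.6, 136617115 to 136620376, - strand) was at 1.15, 1.77 and 2.47 CPM in TAAR5-KO and 2.41, 2.72 and 3.28 CPM in WT, so that 4 TAAR5-KO libraries lay below every WT library. Its means were 1.83 ± 0.552 and 2.81 ± 0.373 CPM (SD, n = 6 each), on the log2 scale a difference of -0.58 (SE 0.17, edgeR likelihood ratio test, adjusted p = 0.0730; quasi-likelihood test, adjusted p = 0.183). The call was lost without any 1 of NK1, NK2, NK3, NK6, NK7, NK10, NK11 or NK12, with an adjusted p of at most 0.215 and a log2 fold change between -0.68 and -0.48.

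C1qa was at 1.56, 1.93 and 2.85 CPM in TAAR5-KO and 1.98, 2.66 and 3.73 CPM in WT (log2 fold change -0.36, SE 0.18, edgeR likelihood ratio test, adjusted p = 0.416). C1qb was at 1.84, 3.19 and 4.24 CPM in TAAR5-KO and 3.51, 4.09 and 5.11 CPM in WT (log2 fold change -0.37, SE 0.16, edgeR likelihood ratio test, adjusted p = 0.324). For both chains the highest TAAR5-KO library was above at least 1 WT library. The summed level of the 3 chains ran from 5.05 to 9.56 CPM in TAAR5-KO and from 8.31 to 11.4 CPM in WT.

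None of the 8 members that are ITAM adaptors or leukocyte surface proteins passed the test (0 lower, 0 higher), and their median log2 fold change was -0.12. Tyrobp, the DAP12 adaptor that carries the activating motif for TREM2, was at 0.324, 0.903 and 1.30 CPM in TAAR5-KO and 0.547, 0.716 and 1.15 CPM in WT. The TAAR5-KO libraries of Tyrobp enclosed the whole WT range, and the log2 fold change was 0.08 with a 95% interval of -0.44 to 0.60. Trem2, the lipid-sensing receptor that signals through it, had a log2 fold change of 0.04 (95% interval -0.42 to 0.50).

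The other members of that group were at -0.43 for Ly86, the partner of a Toll-like receptor relative, -0.23 for Fcer1g, the Fc receptor gamma chain, -0.16 for the tetraspanin Cd53, -0.15 for Itgam, the CD11b integrin, -0.09 for the Fc receptor Fcgr3 and -0.01 for Ptprc, the CD45 phosphatase (log2 fold changes). Fcgr3 is close in sequence to Fcgr2b, and 68.7% of the exonic bases of Itgam are shared with the predicted gene Gm49368 on the same strand, so the split of reads is uncertain for both. Counts of these 8 genes in a library ran from 4 to 96.

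Of the 7 members that act in signalling inside the cell, 2 were lower and 0 higher, with a median log2 fold change of -0.35. Dock2 (ENSMUSG00000020143.16, chromosome 11, 34176815 to 34674719, - strand) activates Rac downstream of chemokine receptors in leukocytes. Its lowest, median and highest levels were 0.648, 0.722 and 1.09 CPM in TAAR5-KO and 1.15, 1.43 and 2.65 CPM in WT. Every TAAR5-KO library was below every WT library, which was so for 2 members and 0.388% of all features, while the reverse held for 0 members and 0.626% of features. The means of 0.798 ± 0.178 and 1.62 ± 0.543 CPM (SD, n = 6 each) gave a fitted level 47.8% lower, on the log2 scale a difference of -0.94 (SE 0.22, edgeR likelihood ratio test, adjusted p = 0.00831; quasi-likelihood test, adjusted p = 0.0916). Dock2 kept its call without each of the 12 libraries in turn, with a log2 fold change between -1.02 and -0.82. These levels rest on 8 to 26 counts per library in TAAR5-KO and 16 to 57 in WT, and 4.03% of its exonic bases overlap a feature on the opposite strand.

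Laptm5 (ENSMUSG00000028581.18, chromosome 4, 130640436 to 130663452, + strand) sits in lysosomal membranes and dampens immune receptor signalling. It was at 2.92, 3.75 and 4.46 CPM in TAAR5-KO and 3.73, 5.47 and 5.97 CPM in WT, with 4 WT libraries above every TAAR5-KO library. The means were 3.67 ± 0.628 and 5.12 ± 0.949 CPM (SD, n = 6 each), on the log2 scale a difference of -0.50 (SE 0.14, edgeR likelihood ratio test, adjusted p = 0.0305; quasi-likelihood test, adjusted p = 0.138). Its call was lost without NK1, NK7 or NK11, where the adjusted p reached 0.146.

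The other signalling members did not pass. They were at -0.37 for Inpp5d, the SHIP1 phosphatase, -0.35 for Dock8, an exchange factor for Cdc42, -0.21 for Apbb1ip, an integrin-activating adaptor, -0.17 for Aif1, the actin-bundling protein known as IBA1, and 0.17 for Vav1, an exchange factor for Rac (log2 fold changes). Dock2 and Dock8 belong to the same family, and their 95% intervals were -1.38 to -0.50 and -0.79 to 0.09. Aif1 and Vav1 were among the lowest members, with 2 to 26 and 2 to 15 counts per library.

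Lysosomal proteins were lower in 1 of 3 and higher in 0 of 3, with a median log2 fold change of -0.35. Lgmn (ENSMUSG00000021190.15, chromosome 12, 102360343 to 102406072, - strand), an asparaginyl endopeptidase that processes other proteases, was at 9.11, 10.6 and 12.3 CPM in TAAR5-KO and 12.9, 13.5 and 15.2 CPM in WT. As for Dock2, every TAAR5-KO library was below every WT library. The means were 10.7 ± 1.09 and 13.7 ± 0.828 CPM (SD, n = 6 each), on the log2 scale a difference of -0.35 (SE 0.088, edgeR likelihood ratio test, adjusted p = 0.0178; quasi-likelihood test, adjusted p = 0.0838). Lgmn kept its call without each of the 12 libraries in turn. Ctss, the protease cathepsin S, was at 9.47 ± 1.02 and 12.0 ± 1.63 CPM (SD, n = 6 each; log2 fold change -0.32, edgeR likelihood ratio test, adjusted p = 0.156), and Cd68, a lysosomal glycoprotein of macrophages, had a log2 fold change of -0.53 (SE 0.25, edgeR likelihood ratio test, adjusted p = 0.347).

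The 5 transcription factors held 0 calls in either direction, with a median log2 fold change of -0.28. Spi1, which encodes PU.1, was at 0.419, 0.511 and 0.743 CPM in TAAR5-KO and 0.334, 0.522 and 0.756 CPM in WT, and the WT range enclosed the TAAR5-KO range (log2 fold change 0.03, 95% interval -0.51 to 0.58). With 3 to 22 counts per library, the fit did not exclude a change within that interval. Sall1, a repressor that keeps microglial identity, had a log2 fold change of -0.28 (SE 0.12, edgeR likelihood ratio test, adjusted p = 0.326). Ikzf1, a zinc finger factor of lymphoid and myeloid cells, was at -0.31, Runx1, which acts in early blood formation, at -0.45, and Irf8, the partner of PU.1, at -0.11 on the same scale. Olfml3, a secreted matrix protein made by microglia in the brain, was at 2.22 ± 0.569 and 2.71 ± 0.592 CPM (SD, n = 6 each; log2 fold change -0.20).

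The members differed in level and in the precision of their fold changes. All 7 members at 5 CPM or more had log2 fold changes below 0, from -0.36 to -0.21, with a median SE of 0.11, and 3 were called. Of the 11 between 2 and 5 CPM, 10 were below 0 (median -0.36, median SE 0.16) and 2 were called. Of the 20 under 2 CPM, 15 were below 0 (median -0.19, median SE 0.24) and Dock2 alone was called. Per kilobase of gene length, the level was highest for Ctss (7.91 ± 1.37 CPM per kb, SD over 12 libraries), Lgmn (5.25 ± 0.785), P2ry12 (3.98 ± 0.719), C1qb (3.37 ± 0.796) and C1qa (2.34 ± 0.641). The neighbouring levels of Lgmn, P2ry12, C1qb and C1qa lie within the sum of their SDs. Runx1 was the lowest, at 0.0404 ± 0.0216 CPM per kb, and Dock2 stood at 0.106 ± 0.0504 CPM per kb.

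**Figure D3:**
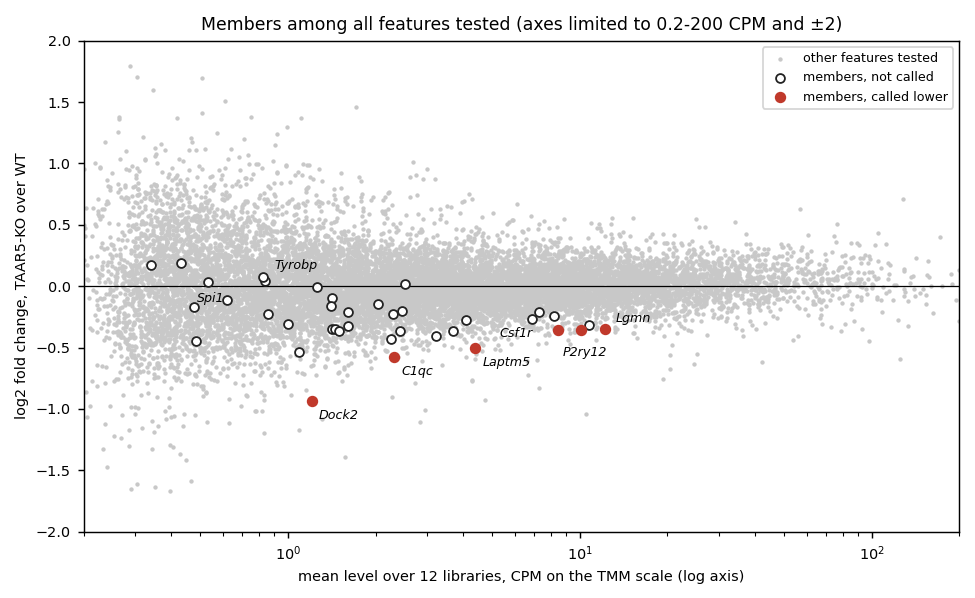
Log2 fold change, TAAR5-KO over WT by the labels, against the mean level over 12 libraries in CPM (log axis) for all features tested (grey), members not called (open) and members called lower (red). The members lie mostly below 0 across the range, and Dock2 is the called member at the lowest level.

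Taken per library, the summed level of the 38 members was 91.0 to 116.8 CPM in TAAR5-KO (median 103) and 120.7 to 136.6 CPM in WT (median 127). The member score, the mean log2 CPM of the 38, was 0.877 ± 0.123 in TAAR5-KO and 1.13 ± 0.0743 in WT (SD, n = 6 each), a difference of -0.25. All 6 TAAR5-KO scores were below all 6 WT scores. NK3 was the lowest and held the lowest level of 12 for 11 of the 38 members, while NK7 was the highest, with 32 members above their median. NK4, labelled TAAR5-KO, had 19 members below and 19 above the median, and so did NK10, labelled WT. Scores of the role groups differed by -0.50 for C1q, -0.41 for the lysosomal proteins, -0.31 for signalling, -0.21 for the transcription factors, -0.20 for the surface receptors and -0.13 for the ITAM adaptors and leukocyte surface proteins. The lysosomal score was the 1 group score with all 6 TAAR5-KO libraries below all 6 WT libraries.

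Under each label, the member score was lowest in the libraries with a ribosomal RNA share over 85%. In NK1, NK2 and NK3, with ribosomal RNA shares of 86.6 to 88.1%, the score was 0.678 to 0.852. In NK4, NK5 and NK6, with shares of 73.8 to 81.9%, it was 0.948 to 0.995. In the WT libraries NK9 and NK10, with shares of 87.4 and 85.6%, the score was 1.07 and 1.06. In the other WT libraries, with shares of 64.3 to 80.7%, it was 1.11 to 1.26. The split at a share of 85% was chosen after seeing the data and left 5 libraries above and 7 below. Within the 7 libraries below it, 1 member (Dock2) was called lower, beside 0.195% of all features, with 30 of 38 below 0 and a median log2 fold change of -0.22. Within the 5 above it, 8 of 27 members tested were lower (C1qa, C1qb, C1qc, Ctss, Dock2, Lgmn, Ly86 and Olfml3), beside 3.12% of all features, with a median of -0.36. The log2 fold change of C1qc was -0.33 in the first set and -1.08 in the second, and that of Dock2 was -0.85 and -1.41. With the ribosomal RNA share as a covariate, 2 members were called lower, beside 0.338% of all features, with a median of -0.24. Without ribosomal RNA features, 20743 features passed the filter in place of 13902, so the adjustment also changed. In that fit 3 members were called lower, beside 0.366% of all features, with a median of -0.29. The part of ribosomal RNA carryover in the differences was not tested beyond these values.

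**Figure D4:**
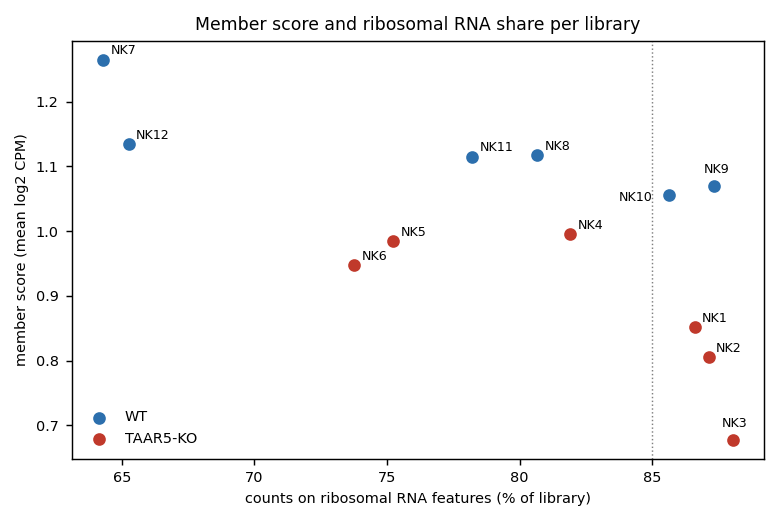
Member score (mean log2 CPM of the 38 members) against the percentage of counts on ribosomal RNA features in each library, labelled WT (blue) or TAAR5-KO (red); the dotted line marks 85%. All WT scores lie above all TAAR5-KO scores on either side of the line, and NK1, NK2 and NK3 are the 3 lowest.

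A further list of 35 genes used for microglia, none of them a member, gave 29 tested. Of these 1 was lower (3.45%, beside 0.691% of all features) and 0 higher. The called gene was Adgrg1, an adhesion receptor of microglia and of neural and oligodendrocyte precursors, at 5.25 ± 0.986 CPM in TAAR5-KO and 6.98 ± 0.723 CPM in WT (SD, n = 6 each; log2 fold change -0.42, SE 0.12, edgeR likelihood ratio test, adjusted p = 0.0668; quasi-likelihood test, adjusted p = 0.161). Log2 fold changes were below 0 for 21 of the 29, with a median of -0.15. The score of this list was 0.932 ± 0.121 in TAAR5-KO and 1.10 ± 0.0682 in WT (SD, n = 6 each), and 5 TAAR5-KO libraries were below every WT library. The median of its summed level was not lower, at 229.7 CPM in TAAR5-KO (192.5 to 255.4) and 226.1 CPM in WT (212.9 to 254.8). The most abundant genes weigh most in that sum, and a gene of the list reached 4800 counts in a library. The score weighs each tested gene alike. Of 23 genes that microglia turn on in disease, 15 were tested and 2 were lower (13.3%, beside 0.691% of all features). They were Axl, a receptor for apoptotic cells (log2 fold change -0.43, SE 0.12, edgeR likelihood ratio test, adjusted p = 0.0447), and Apoe, a lipid carrier that astrocytes also make (-0.36, SE 0.10, adjusted p = 0.0452 in the same test). The quasi-likelihood test called neither. Among 10 ligands of microglial receptors tested, 0 were called, and log2 fold changes were -0.29 for Il34, -0.25 for Csf1, -0.43 for Tgfb1 and 0.03 for Cx3cl1, the ligand of Cx3cr1.

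Markers of other cells were read beside these results. Monocyte and neutrophil markers were near 0, with at most 9 counts in any library for each of 10 genes, none of them tested, and summed levels of 0.210 to 0.810 CPM in TAAR5-KO and 0.203 to 0.963 CPM in WT. Of 10 lymphocyte markers 1 was tested, Cd4, with a log2 fold change of 0.11, and the other 9 reached at most 3 counts. Perivascular macrophage markers gave 0 calls among 4 tested of 10, with summed levels of 2.03 to 4.44 CPM in TAAR5-KO and 2.89 to 4.21 CPM in WT. The median log2 fold change of the 4 was -0.38, 3 of them were below 0, 1 was lower at an unadjusted p under 0.05 (Mrc1, -0.66), and the difference in score was -0.23. Both MHC class II genes tested, of 5 listed, had log2 fold changes above 0 and 0 calls. Among 5 erythroid genes, Hbb-bt, a beta globin, was called higher, with a log2 fold change of 1.70 (SE 0.40). Its adjusted p was 0.0065 in the edgeR likelihood ratio test and 0.101 in the quasi-likelihood test. Of the 5 genes, 4 had log2 fold changes above 0 and 1 below (median 0.51). At an unadjusted p under 0.05, 3 were higher and 0 lower. Their summed level was 6.39 to 17.1 CPM in TAAR5-KO and 5.14 to 13.7 CPM in WT, and the difference in score was 0.67.

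Astrocyte markers also lay below 0. All 10 had log2 fold changes below 0 (median -0.22), and 1 was called lower, the gap junction gene Gja1 (31.0 ± 5.89 and 41.3 ± 3.27 CPM, SD, n = 6 each; log2 fold change -0.41, SE 0.12, edgeR likelihood ratio test, adjusted p = 0.0568). At an unadjusted p under 0.05 in the same test, 7 markers were lower and 0 higher, beside 5.51% and 6.39% of all features. The summed level of the 10 was 1092 to 1295 CPM in TAAR5-KO and 1197 to 1409 CPM in WT, and the difference in score was -0.28. By score, 5 TAAR5-KO libraries were below every WT library and 5 WT libraries above every TAAR5-KO library. Among 10 markers each, oligodendrocytes gave 0 calls with a median of -0.14, endothelial cells 0 calls with a median of 0.04 and neurons 0 calls with a median of 0.09. The differences in score of these 3 lists were -0.14, -0.0044 and 0.07. The part of other cell types in the members' differences was not tested.

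**Figure D5:**
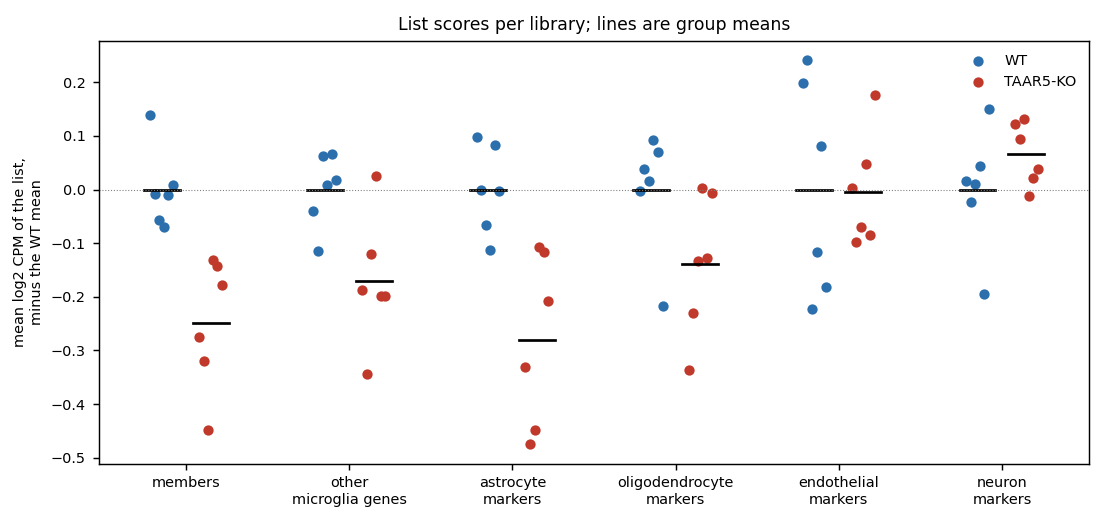
Mean log2 CPM of 6 gene lists in each library minus the mean of the WT libraries, for libraries labelled WT (blue) and TAAR5-KO (red); black lines are group means. The difference between group means is -0.25 for the members, -0.17 for the other microglia genes and -0.28 for the astrocyte markers. The groups do not overlap for the members. For the astrocyte markers, 5 TAAR5-KO libraries lie below every WT library and 5 WT libraries above every TAAR5-KO library.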

How the data were processed

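Striatal RNA of 12 mice was depleted of ribosomal RNA and sequenced single-end from directional libraries, per the labels (which also give the molecule as polyA RNA). The authors trimmed reads with cutadapt 4.1, aligned them to GRCm39 with STAR 2.7.11b and made gene counts with featureCounts 2.0.6. The deposited values are raw counts for 57132 features; the strand setting and the handling of multi-mapping reads are not given in the sources used here. Another 12 columns of per-library values were not used.

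The test, the CPM limit and the threshold are those of the study's methods, while TMM and CPM on total counts for the filter were chosen here (the same limit on TMM library sizes, run as an alternative, left 13053 features). Features that reached a CPM of 0.5 in 3 or more libraries were fitted in 1 edgeR 4.0.16 model (R 4.3.3) over all 12 libraries, with TMM normalization, a likelihood ratio test and Benjamini-Hochberg adjustment over all 13902 features tested, called at an adjusted p under 0.1. CPM in the text are counts scaled by library size times the TMM factor, which ran from 0.375 to 2.46. Scores are means of log2 CPM with a prior count of 2. The quasi-likelihood test and DESeq2 1.42.0 were run as alternatives, and the script was tested on simulated data. Alternative fits used ribosomal RNA shares, gene length and the GC content of exons, known for 99.8% of features tested. Coordinates and exon overlaps come from GENCODE on GRCm39.

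The members and lists were chosen with earlier results of these data known, so counts over them carry no test. Values per library were given for called members, members whose groups do not overlap, and Cx3cr1, P2ry12, Tmem119, Csf1r, C1qa, C1qb, C1qc, Tyrobp and Spi1, and for other lists the called genes, at most 5 a list; genes named beyond these were chosen after their values were seen. The samples are labelled as 6 separate animals per group. Alternatives are given in the closing section.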

Additional observations from a re-analysis of the deposited data

Results flagged for a closer look

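The member score of NK7, labelled WT, was 1.26, the highest of all 12 libraries. Its gap to the next WT library was 0.6254 of the WT range, just over the Dixon limit of 0.625 for 6 samples. It was the 1 group past its limit among 78 checked, and chance alone puts about 1 in 20 groups past it. NK7 also had the lowest ribosomal RNA share (64.3%) and the highest TMM factor (2.46). Without NK7, 2 members were called lower (Dock2 and Lgmn), beside 0.251% of all features. The median log2 fold change of the members was then -0.27, as with all 12 libraries.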

How the results depend on the processing

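No member was called higher under any alternative that makes calls, and the median log2 fold change of the members and the difference in member score (TAAR5-KO minus WT) were below 0 under each alternative in which they were computed. The count of members called lower was 6 in the report. It was 4 with DESeq2, which gave Dock2 and C1qc no adjusted p, 4 without the gene length trend, 5 with robust dispersions, 3 at an adjusted p under 0.05, without ribosomal RNA features or without the GC trend, 2 with the quasi-likelihood test or the ribosomal RNA share as a covariate, 1 without the filter on low counts or within libraries under a share of 85% (chosen after seeing the data), and 0 with library size alone. The share of all features called lower, 0.691% in the report, moved too. It was 0.453% without the length trend, 0.446% with robust dispersions, 0.366% without ribosomal RNA features and 0.338% with the covariate. It was 0.245% without the GC trend, 0.237% at an adjusted p under 0.05 and 0.195% under a share of 85%. It was 0.144% with the quasi-likelihood test, 0.0985% without the filter and 0.0504% with library size alone. Leaving out 1 library gave 2 to 6 members, with 2 without NK1, NK7 or NK11 and 3 without NK2, NK3 or NK6. The share of all features then ran from 0.189% (without NK11) to 1.36% (without NK4). Library size alone moved the median of all features to -0.49, of the members to -0.76 and the score difference to -0.71, and libraries over 85% moved the latter to -0.38. Leaving out 1 library kept the members' median at -0.30 to -0.24 and the score difference at -0.27 to -0.20.

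Other microglia genes called lower, 1 in the report, were 0 with the quasi-likelihood test, library size alone, no filter, an adjusted p under 0.05, the GC trend removed, the ribosomal RNA covariate or a share under 85%, were 2 with filterByExpr or a CPM filter on TMM library sizes, and were 0 to 3 leaving out 1 library (3 without NK4, and 0 without NK12, NK11, NK6, NK3, NK2 or NK1). Over 85%, 1 was called higher.

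The sign turned for uncalled members alone. With library size alone the log2 fold changes were Spi1 -0.54, Csf3r -0.30, Tyrobp -0.40, Trem2 -0.42, Vav1 -0.36 and Gpr34 -0.40. Gpr34 was -0.0094 without a filter, -0.19 without the GC trend and -0.044 over 85%. Fcgr3 was 0.0066 without the GC trend, 0.020 with the covariate and 0.29 over 85%, and Aif1 was 0.11 with the covariate. Inpp5d (0.18) and Itgam (0.33) turned over 85%, and Ptprc (0.19), Spi1 (-0.043), Olfml3 (0.067) and Cd53 (0.068) under 85%. Leaving out 1 library gave Ptprc -0.14 to 0.10, Spi1 -0.080 to 0.20, Trem2 -0.12 to 0.13, Gpr34 -0.054 to 0.083, Tyrobp -0.091 to 0.22, Csf3r -0.0015 to 0.37 and Aif1 -0.44 to 0.13. The cause of these differences was not tested.

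No paired analysis was possible because the columns carry the names NK1 to NK12, which the labels do not tie to numbered animals, so the planned replicate block was not run. The GC and length corrections and the ribosomal RNA share were run without a block. Depth limits the members under 2 CPM, 20 of 38, whose median SE was 0.24.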
